A study of Caenorhabditis elegans with 2 samples.

Results

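The regions described here are the upstream promoter summits of BLMP-1 in Caenorhabditis elegans, the points of strongest binding that lay in the promoter window of a single protein-coding gene but away from every start of that gene. Each Ensembl transcript start on the ce11 build (WBcel235) was given a window reaching 1000 bp upstream and 200 bp downstream. A summit was kept when its window belonged to exactly 1 protein-coding gene and when it lay more than 250 bp from all starts of that gene. Of the 3031 summits on nuclear chromosomes, 582 were kept (19.2%, 95% Wilson interval 17.8 to 20.6%), and they fell to 555 of 19973 protein-coding genes (2.78%). The rule used positions and no measured strength. The same promoter windows held 591 core summits, within 250 bp of a start of their only gene, so the upstream summits were 49.6% of the 1173 single-gene promoter summits. A further 355 summits, called near intergenic here, lay outside every gene and promoter window but within 2000 bp of a start.

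The study used chromatin immunoprecipitation with sequencing to locate BLMP-1 on the genome of whole L2 larval hermaphrodites. All worms were of strain OP109 (unc-119(ed3) III; wgIs109), which carries the integrated transgene wgIs109 and expresses BLMP-1 fused to a C-terminal GFP-FLAG tag. BLMP-1 itself stands in the antibody field of the labels, and whether the tagged protein alone or untagged BLMP-1 too was precipitated is not stated. The chromatin was sheared by sonication, and 2 biological replicates of this 1 group, numbered 2 and 3, were analysed, with no other genotype, stage or treatment. Whole worms were used, so binding in a few cells and weak binding in many cells cannot be told apart. The lists give no read counts, so the sequencing depth is unknown, and intervals below cover the counting of summits only.

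BLMP-1 belongs to the PRDM1 (Blimp-1) family of zinc finger proteins, whose mammalian founder is a DNA-binding factor known mostly as a transcriptional repressor. In the worm it acts in the epidermis, in cuticle formation and in the timing of larval development. In mammals PRDM1 binds a GAAAG-containing site, which is searched for here as AGTGAAAG or AGCGAAAG and called the PRDM1 core. Promoters in the worm are compact, and many genes have several annotated transcript starts, so a summit upstream of 1 start can lie inside the same gene.

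The sequence at 9 of the 12 strongest upstream summits is shown first, since the results on DNA words below rest on windows of this kind. Each window holds the summit base and 50 bases to either side from the RefSeq WBcel235 genome, written on the strand of the gene so that the gene's start lies beyond the right end (to the left for dve-1, whose summit lies downstream of its nearest start). Capitals mark the PRDM1 core and the words GAGAGAGA, AGACGCAG and AAGTGAAA on either strand. In the windows of dpy-31, atf-2, din-1 and rbx-1 the capitals include the PRDM1 core, while those of rpl-3 and sao-1 hold none of the marked words. The window of magi-1, which holds AGACGCAG, was added after its values were seen.
dpy-31 (chrIII:7201479-7201579, plus strand): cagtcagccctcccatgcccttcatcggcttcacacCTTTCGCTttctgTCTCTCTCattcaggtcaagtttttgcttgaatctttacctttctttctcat
rpl-3 (chrIII:3867522-3867622, plus strand): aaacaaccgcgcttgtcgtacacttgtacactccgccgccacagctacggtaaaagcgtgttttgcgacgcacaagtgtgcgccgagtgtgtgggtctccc
atf-2 (chrII:8751140-8751240, plus strand): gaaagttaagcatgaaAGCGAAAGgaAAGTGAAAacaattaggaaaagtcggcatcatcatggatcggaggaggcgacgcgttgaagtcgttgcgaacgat
sao-1 (chrV:13963462-13963562, plus strand): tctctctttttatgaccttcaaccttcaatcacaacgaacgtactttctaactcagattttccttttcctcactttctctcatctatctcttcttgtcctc
ape-1 (chrV:11680923-11681023, plus strand): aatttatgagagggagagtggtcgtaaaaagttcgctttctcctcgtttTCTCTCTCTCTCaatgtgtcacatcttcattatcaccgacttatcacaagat
din-1 (chrII:11617838-11617938, minus strand): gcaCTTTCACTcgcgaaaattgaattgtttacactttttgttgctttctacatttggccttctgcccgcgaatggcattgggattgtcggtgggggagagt
dve-1 (chrX:433142-433242, minus strand): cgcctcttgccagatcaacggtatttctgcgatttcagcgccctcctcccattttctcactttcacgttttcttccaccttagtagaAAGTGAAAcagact
rbx-1 (chrV:9690881-9690981, minus strand): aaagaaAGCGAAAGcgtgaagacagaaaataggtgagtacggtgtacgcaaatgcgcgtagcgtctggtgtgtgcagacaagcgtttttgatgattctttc
ubc-7 (chrIII:9631410-9631510, minus strand): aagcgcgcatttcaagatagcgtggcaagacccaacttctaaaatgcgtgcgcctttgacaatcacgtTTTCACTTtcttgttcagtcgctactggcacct
magi-1 (chrIV:11718803-11718903, plus strand): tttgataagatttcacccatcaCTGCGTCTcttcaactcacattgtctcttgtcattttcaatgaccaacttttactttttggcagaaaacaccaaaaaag

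The nearer upstream summits were the far slope of a distribution that peaked inside the core promoter, and beyond 500 bp there was no further steady decline. Over all upstream summits the distance to the gene's nearest start had a median of 511 bp and ran from 251 to 996 bp, with 285 summits at 251 to 500 bp, 161 at 501 to 750 bp and 136 at 751 to 1000 bp. Density was computed as summits per Mb of sequence lying in the window of exactly 1 gene, and it fell away from the start in the 50 bp bins. It was 83.3 per Mb at 251 to 300 bp upstream, 75.8 at 301 to 350 bp, 61.4 at 351 to 400 bp, 42.7 at 401 to 450 bp and 27.9 at 451 to 500 bp. The core promoter held the highest bin, 141 per Mb at 151 to 200 bp upstream, and 102 per Mb at 201 to 250 bp, so no step marked the 250 bp limit. All distances are from annotated transcript starts, and where transcription begins was not measured here.

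**Figure D1:**
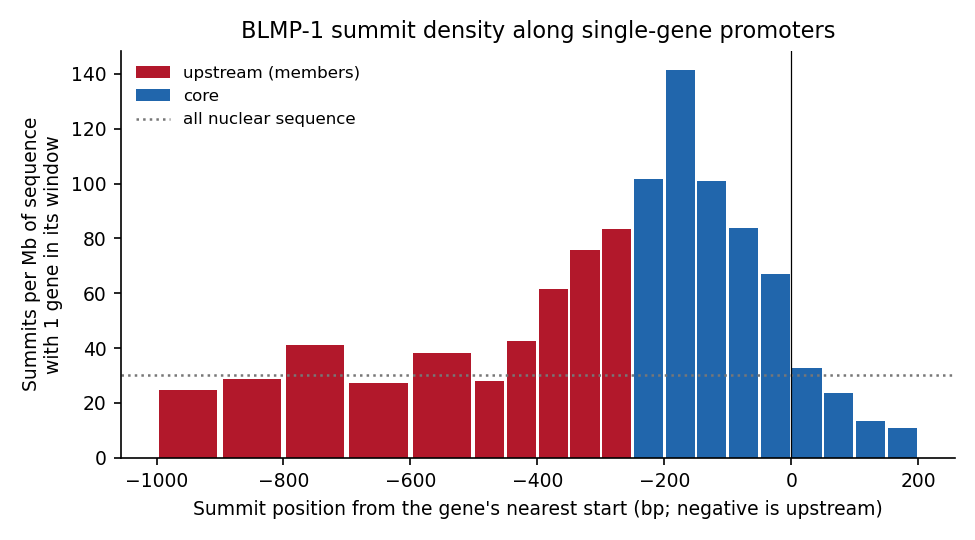
Summits per Mb of sequence in the window of exactly 1 protein-coding gene (vertical axis) by position from the gene's nearest start (horizontal axis, bp); upstream summits are red, core summits blue and the dotted line is the density over all nuclear sequence, 30.2 per Mb. The bars decline from 141 per Mb at 151 to 200 bp upstream to 27.9 per Mb at 451 to 500 bp and show no further steady decline.

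Sequence outside annotated genes gave the closest comparison with intergenic DNA. There the density was 68.1 summits per Mb at 251 to 500 bp upstream (186 summits, 95% exact Poisson interval 58.7 to 78.7) and 43.0 per Mb at 501 to 1000 bp upstream (186 summits, 37.1 to 49.7). In the core promoter it was 114 per Mb at 1 to 250 bp upstream (103 to 126), and outside all genes and promoter windows it was 38.5 per Mb (35.9 to 41.2). The nearer upstream sequence thus had an interval above that of the remaining intergenic DNA, and the interval of the farther sequence overlapped it. These densities were not tested.

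Of the summits on either side of the limits, those just past 250 bp were at mppb-1 (251 bp, signal 140), exc-15 (252 bp, 48.1) and rpl-13 (253 bp, 39.9). The core summits just inside were at elt-1 (250 bp, signal 53.5), D2005.4 (249 bp, 28.5) and pdhk-2 (248 bp, 42.7). At the far limit the last upstream summits were at srdh-1 (996 bp, signal 44.0), tsp-14 (994 bp, 68.7) and acer-1 (993 bp, 42.7). The nearest summits beyond it were at fbxb-58 (1001 bp, signal 44.9), gldi-7 (1001 bp, 34.2) and F35H8.4 (1002 bp, 47.6). Signals just inside and just outside each limit were of the same order.

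Most upstream summits lay between genes. Of the 582, 372 (63.9%) were outside every annotated gene, 127 (21.8%) were inside the gene they were assigned to, 41 (7.04%) were inside another protein-coding gene and 42 (7.22%) were inside non-coding genes only. Much of the sequence in the window of exactly 1 gene was outside genes too, 2.73 of 4.72 Mb at 251 to 500 bp upstream. At 501 to 1000 bp it was 4.32 of 9.10 Mb, and the shares of summits and sequence were not tested. All 127 summits inside their own gene belonged to genes with several annotated starts, where they made up 42.1% of the 302 upstream summits. The rule fixed in advance that none belonged to a gene with 1 start, whose window past 250 bp lies wholly upstream. Genes with a single annotated start were 50.1% of the 555 genes, against 72.6% of all protein-coding genes. A gene with more starts also has more windows, which these shares do not allow for. A coding gene's exon held 23 of the summits (3.95%).

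Annotated non-coding genes were a further feature that the rule did not use. The start of a non-coding gene lay within 250 bp of 112 upstream summits (19.2%) and of 71 of the 591 core summits (12.01%). Of the 112, 87 had a gene of the class ncRNA nearest, 9 a piRNA, 6 an snRNA, 4 a snoRNA, 3 a lincRNA, 2 a tRNA and 1 a miRNA. For these summits the protein-coding gene was not the nearest annotated start. On chromosome X lay 147 upstream summits (25.3%), against 22.0% of core summits and 21.9% of all nuclear summits. Neither difference was tested.

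The strongest upstream summit stood 677 bp from the nearest start of dpy-31 on chromosome III (summit 7201529), with a peak signal of 323. That gene encodes an astacin metalloprotease needed to process cuticle collagens. Signal is the authors' own value for each peak, on a scale that the sources used here do not give, and it is compared below only within a list or by rank. In the separate lists the dpy-31 peak had a signal of 153 in replicate 2 (rank 16) and 178 in replicate 3 (rank 21), and it ranked 20 among all nuclear summits of the thresholded list. The summit 282 bp from rpl-3, which encodes a protein of the large ribosomal subunit, had a signal of 317, with 145 in replicate 2 and 189 in replicate 3. These 2 summits ranked within the strongest 21 nuclear peaks of each list.

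Next came the bZIP transcription factor gene atf-2 (chromosome II, summit 8751190, 796 bp, signal 265), with 85.9 in replicate 2 and 181 in replicate 3. Its summit lay inside the non-coding genes K08F8.8 and K08F8.10 and 11 bp from a non-coding start. T28B8.1, which RefSeq names as a PAX3- and PAX7-binding protein, had a signal of 254 at 268 bp (chromosome I, summit 8133847). For sao-1, which encodes a GYF domain protein, the signal was 247 at 414 bp, with the summit inside the neighbouring gene R10D12.13. The gap junction gene inx-13 had 239 at 635 bp, and ape-1, the worm relative of the p53 inhibitor iASPP, had 238 at 700 bp. The sites in this group differed in setting, being intergenic, within a non-coding gene, within another coding gene or within the gene itself.

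The strong sites inside their own gene were at genes with several starts, as the rule requires. The heterochronic kinase gene kin-20, a casein kinase I delta relative, had a signal of 232 at 386 bp, with 80.1 in replicate 2 and 155 in replicate 3. The summit of din-1, which encodes a corepressor that binds the nuclear receptor DAF-12, had 223 at 769 bp (chromosome II, summit 11617888). In the homeobox gene dve-1, known from the mitochondrial stress response, the summit lay 308 bp downstream of the nearest start, in an exon, with a signal of 219. In all, 14 of the 582 summits lay downstream of their gene's nearest start, being upstream of another start of the gene.

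The remaining 10 of the 20 strongest had signals between 162 and 203. They were at rbx-1 (203, a RING subunit of cullin ubiquitin ligases), ubc-7 (192, a ubiquitin-conjugating enzyme), nrde-4 (188, nuclear RNA interference), dpy-27 (184, a condensin subunit of dosage compensation) and wwp-1 (178, a ubiquitin ligase). The others were at magi-1 (175, a PDZ scaffold), rpl-35 (169, large ribosomal subunit), txdc-12.1 (164, thioredoxin domain), nhr-85 (164, a nuclear hormone receptor) and miz-1 (162, SP-RING domain). Each of the 20 had a summit within 100 bp among the 3060 strongest peaks of both replicates. Of the 20, 11 lay outside genes, 5 held the PRDM1 core, 3 held GAGAGAGA and 3 held AGACGCAG within 50 bp, and 10 held at least 1 of these words. Over all upstream summits 63.9% lay outside genes and 23.02% held at least 1 of the words.

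**Figure D2:**
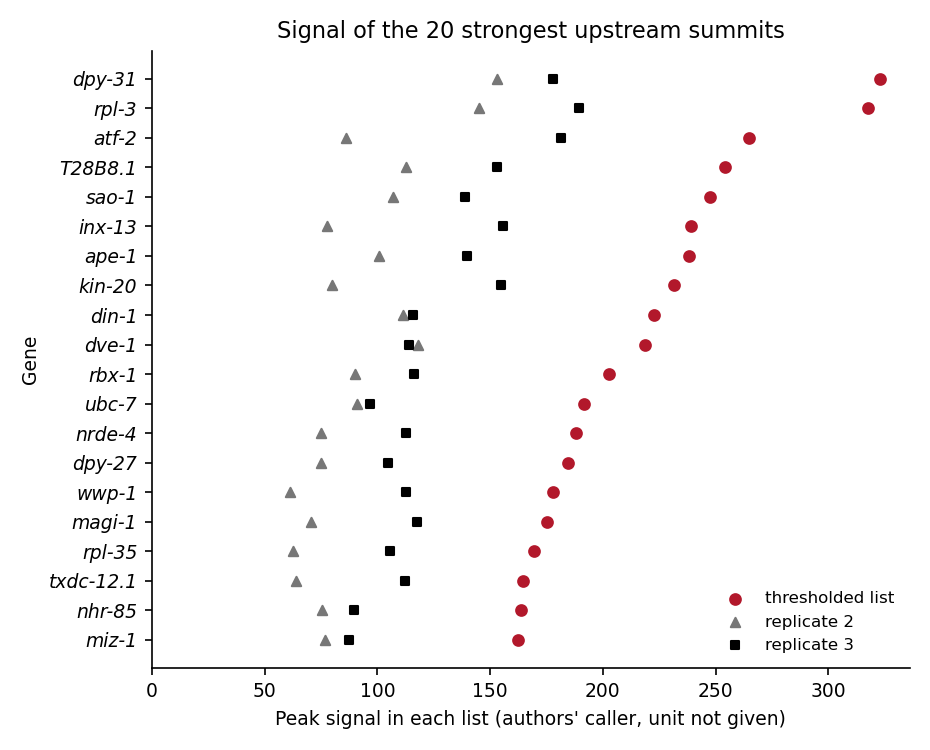
Peak signal (horizontal axis, authors' caller, unit not given) of the 20 strongest upstream summits by gene, in the thresholded list (red circles), replicate 2 (grey triangles) and replicate 3 (black squares). dpy-31 and rpl-3 lead the thresholded list at 323 and 317, and dve-1 is the gene whose replicate 2 value, 118, lies above its replicate 3 value, 114; scales differ between lists.

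Upstream summits were found among the stronger and the weaker summits of the list, but not at its very top. Their signal had a median of 45.4 (quartiles 33.6 and 66.4, range 27.1 to 323), against a median of 41.95 for core summits, 42.1 for near intergenic summits and 44.3 for all nuclear summits, which ran from 27.1 to 858. Above the median rank of the list, among the stronger 1515 of 3031 (50%), lay 301 upstream summits (51.7%), 277 core summits (46.9%) and 170 near intergenic summits (47.9%). The odds ratio was 1.21 against core summits (Fisher's exact test, 0.959 to 1.54 at 95% confidence, adjusted p = 0.371) and 1.17 against near intergenic summits (0.887 to 1.53, adjusted p = 0.510). Neither difference passed the threshold. With the strongest 3060 peaks of replicate 3 alone, the odds ratio against core summits was 0.978.

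Strength varied little with distance to the start. The share in the stronger 1515 was 51.2% at 251 to 500 bp, 50.9% at 501 to 750 bp and 53.7% at 751 to 1000 bp. Of the 100 strongest nuclear summits 20 were upstream summits, and of the 500 strongest 100 were, which is 20% each time beside their 19.2% of the list.

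The separate replicates supported a majority of the upstream summits. A summit within 100 bp among the 3060 strongest peaks of each replicate was found for 348 upstream summits (59.8%), 355 core summits (60.1%) and 200 near intergenic summits (56.3%), beside 62% of all nuclear summits. The odds ratio was 0.989 against core summits (Fisher's exact test, 0.777 to 1.26, adjusted p = 1) and 1.153 against near intergenic summits (0.874 to 1.52, adjusted p = 0.510). The ratio against core summits crossed 1 in several alternatives and passed the threshold in none. The thresholded list was made from these replicates, so support describes the list and is not an independent check.

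Among upstream summits, support went with strength, a link largely built in because both rest on the same 2 replicates. Support was found for 267 of the 301 stronger summits (88.7%) and 81 of the 281 weaker summits (28.8%). Replicate 2 gave a strong peak at 439 of the 582 sites and replicate 3 at 473, and 18 sites had one in neither. In the relaxed lists, which hold background too, 552 sites had a summit within 100 bp in replicate 2 and 562 in replicate 3, with 533 in both. Over those 533 sites Spearman's rho of the replicates' signals was 0.551, a description over peaks of 2 libraries. Peak width went with strength as well: 336 bp was the commonest width, shared by 71.0% of upstream peaks, by 45.8% of the stronger ones and by 97.9% of the weaker ones.

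**Figure D3:**
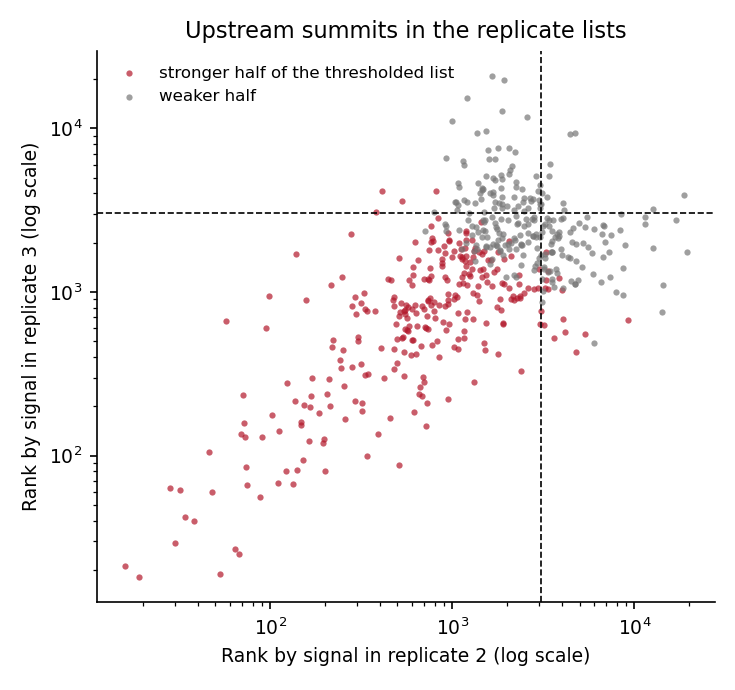
Rank by signal in replicate 2 (horizontal axis, log scale) and replicate 3 (vertical axis, log scale) of the 533 upstream summits with a relaxed summit within 100 bp in both; red points are in the stronger 1515 of the thresholded list, grey points in the rest, ranks are among nuclear peaks, and dashed lines mark rank 3060. Of the 287 red points 268 lie within rank 3060 in both replicates, and of the 246 grey points 82.

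Sequence words were more frequent at the upstream summits than in flank windows. The PRDM1 core, AGTGAAAG or AGCGAAAG on either strand, lay within 50 bp of 34 of the 582 summits (5.84%, 95% Wilson interval 4.21 to 8.05%), against 5 windows of the same length 1000 bp farther upstream (0.859%, exact McNemar test, adjusted p = 2.43e-06). GAGAGAGA, the repeat bound by GAGA factors in flies, lay at 57 summits (9.79%) against 9 flank windows (1.55%, exact McNemar test, adjusted p = 1.77e-09). AGACGCAG, a word that had led a scan of these peaks and has no factor assigned here, lay at 50 summits (8.59%) against 4 flank windows (0.687%, exact McNemar test, adjusted p = 1.14e-10). Windows centred 100 bp farther upstream still held the 3 words, in this order, at 1.55%, 5.67% and 4.12% of summits. Those centred 100 bp toward the gene held them at 2.06%, 4.64% and 3.26%. All 3 words were chosen with their excess over the whole list of peaks known, so the tests against flanks are not independent support for it.

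The words mostly occurred apart from each other. At least 1 of the 3 was found at 134 upstream summits (23.02%), and 7 had 2 or more. No word contains another, but the end of GAGAGAGA and the start of AGACGCAG share AGA and can overlap.

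**Figure D4:**
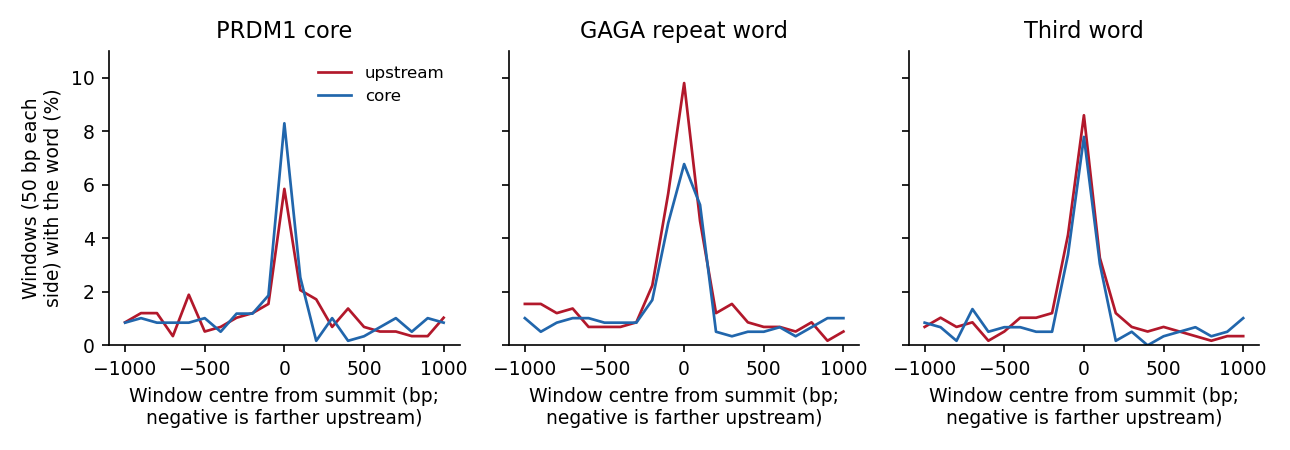
Share of windows, 50 bp to each side of their centre, that hold each word (vertical axis, %) by distance of the window's centre from the summit (horizontal axis, bp, negative values farther upstream), for 582 upstream summits (red) and 591 core summits (blue); the panels are the PRDM1 core, GAGAGAGA and, as the third word, AGACGCAG. In each panel both lines peak at the summit, for upstream summits at 5.84%, 9.79% and 8.59%, and lie at or below 1.89% from 300 bp outward.

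Against the other classes, no difference in these words passed the threshold. The PRDM1 core was at 5.84% of upstream summits, against 8.29% of core summits (Fisher's exact test, odds ratio 0.686, 0.423 to 1.10, adjusted p = 0.371) and 7.89% of near intergenic summits (0.725, 0.418 to 1.27, adjusted p = 0.510). Over all nuclear summits it was at 7.09%. By Fisher's exact test AGACGCAG, at 8.59% of upstream summits, compared with 7.78% of core summits (1.11, 0.717 to 1.73, adjusted p = 0.838) and 8.73% of near intergenic summits (0.982, 0.601 to 1.63, adjusted p = 1), beside 8.05% of all nuclear summits.

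GAGAGAGA was the word that varied most with position. It was at 9.79% of upstream summits, against 6.77% of core summits (Fisher's exact test, odds ratio 1.496, 0.962 to 2.34, adjusted p = 0.371) and 11.3% of near intergenic summits (0.855, 0.547 to 1.35, adjusted p = 0.725), beside 9.11% of all nuclear summits. The comparison with core summits depended on the 250 bp limit: by Fisher's exact test the odds ratio was 2.25 with a limit of 400 bp (adjusted p = 0.00210) and 0.854 with a limit of 150 bp (adjusted p = 0.692). Within the upstream summits the word was at 5.96% at 251 to 500 bp, 14.3% at 501 to 750 bp and 12.5% at 751 to 1000 bp. By place it was at 24 of 127 summits inside their own gene (18.9%) and at 29 of 372 outside genes (7.80%). Windows 1000 bp farther upstream held it for 4 of the 127 summits inside their own gene (3.15%) and 5 of the 372 outside genes (1.34%). Windows 1000 bp toward the gene held it for 0 of the 127 and 3 of the 372 (0.806%). The splits by distance and place were made after the values were seen and were not tested.

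A scan of every 8-letter word put the same families at the head of the list. The upstream summits are part of the list of peaks in which the excess of the words tested above was already known. AGACGCAG had itself led a scan of those peaks. The return of these families was therefore largely fixed in advance and is not independent support for the words. Of 27458 words compared between the summits and the flank windows 1000 bp farther upstream, 37 were at more summits (0.135%) and 21 at fewer (0.0765%) by the exact McNemar test with adjusted p under 0.05. The leading word was AAGTGAAA, at 53 summits against 5 flank windows (exact McNemar test, adjusted p = 3.02e-07), which shares AGTGAAA with the PRDM1 core. GAGACGCA (44 against 2) and AGACGCAG (50 against 4) came next, then AAAGTGAA (54 against 8) and GAGAGAGA (57 against 9). Grouped by shared letters, 7 of the 37 words belonged with AAGTGAAA, 10 with GACGCA and 12 with GAGAGAGA, and 8 were others.

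Of the 2 spellings of the PRDM1 core, AGTGAAAG was the more frequent. It was at 25 upstream summits against 4 flank windows (rank 58, exact McNemar test, adjusted p = 0.0491), and AGCGAAAG was at 9 against 1 (rank 463, adjusted p = 1), too few windows to pass an adjustment over all words. Their excess over the flanks was not compared. AAGTGAAA was about as frequent at upstream summits (9.11%) as at core (9.14%) and near intergenic summits (9.30%). Base composition moved with these results: G and C were 44.3% of the bases at upstream summits, 35.9% in the flank windows and 38.3% in windows 1000 bp toward the gene. All 21 words found less often at summits had at most 1 G or C, and the part of composition in the counts was not tested. The number of words past the threshold was 10 with the 372 summits outside genes and 11 with the 364 summits beyond 400 bp.

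The genes with upstream summits came from many families, and lists are given beside the 2.78% of all protein-coding genes with such a summit. Lists describe counts of genes, and no list was tested. Some summits counted for a listed gene lay inside another protein-coding gene. Those of dpy-10, sym-1, lpr-5, nas-11 and vha-13 lay inside T14B4.19, C44H4.4, lpr-6, acr-3 and cept-2, in this order. Of 16 heterochronic genes, which time larval cell fates, 4 had a core summit (25%) and 5 an upstream summit (31.25%). Besides kin-20 the genes with an upstream summit were ain-1, a GW182-type partner of microRNA Argonautes, lin-42, the worm relative of period, the Argonaute gene alg-1 and the hunchback-like repressor gene hbl-1. The summits of ain-1 lay 755 and 961 bp upstream with signals of 38.4 and 85.2, and those of lin-42 561 and 665 bp from a start with signals of 29.95 and 42.3.

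Only some heterochronic sites stood among the 3060 strongest peaks of both replicates. The stronger ain-1 summit had a signal of 57.5 in replicate 2 and 37.1 in replicate 3, and the stronger lin-42 summit 20.3 in replicate 2 and 26.8 in replicate 3. For alg-1 (456 bp, signal 35.0) replicate 2 gave 12.5 and replicate 3 no summit within 100 bp. For hbl-1 (892 bp, signal 32.2) the values were 17.6 in replicate 2 and 13.7 in replicate 3. Of the 7 heterochronic summits 3 had support among the 3060 strongest peaks of both replicates, at kin-20, ain-1 and lin-42, beside 59.8% of all upstream summits.

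Of 15 genes of microRNA processing and silencing 4 had an upstream summit (26.7%), namely ain-1, alg-1, vig-1 (a RISC-associated protein, signal 91.2 at 414 bp) and cgh-1 (a DEAD-box helicase of RNA granules, 46.8 at 756 bp). Both lists share ain-1 and alg-1, and 1 of the 15 genes had a core summit (6.67%). Of 26 molting genes 4 had one (15.4%): nhr-85 with 164 and another summit with 59.3, sym-1 with 71.7, lin-42 with 42.3 and nhr-23 with 33.2. The molting list has 7 genes with a core summit, and sym-1, which encodes a leucine-rich repeat protein of the extracellular matrix, had both kinds.

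Among genes of the cuticle, the strongest upstream site was that of dpy-31. Of 176 cuticle collagen genes 15 had a core summit (8.52%) and 11 an upstream summit (6.25%). The upstream summits had a median signal of 33.0, and 2 of the 11 were supported in both replicates, beside 59.8% of all upstream summits. The 2 were dpy-10 (signal 120 at 311 bp, 46.1 in replicate 2 and 79.4 in replicate 3) and col-149 (115 at 306 bp, 56.4 in replicate 2 and 62.1 in replicate 3). The third, col-145, had 52.3 and no summit within 100 bp in replicate 2. Of 14 collagen processing enzymes 3 had a core summit and 2 an upstream summit, dpy-31 with 323 and dpy-18, a prolyl 4-hydroxylase subunit, with 112. The summit of dpy-18, 658 bp upstream, held the PRDM1 core and AGACGCAG and had 42.5 in replicate 2 and 75.4 in replicate 3. Other matrix genes with upstream summits were cutl-25 (51.2) and lpr-5 (48.3), and the zona pellucida and precuticle list had 3 of 50. Among astacins, dpy-31 was joined by nas-11 (29.8) and nas-10 (27.3).

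At cytosolic ribosomal protein genes the upstream summits were all intergenic and lay near the core promoter. Of 80 genes 13 had one (16.25%), and 6 had a core summit (7.50%). All 13 lay outside genes, beside 63.9% of all upstream summits. They were 253 to 452 bp from a start with a median of 308 bp, beside 511 bp for all upstream summits. Of these, 11 were supported in both replicates, beside 59.8% of all upstream summits. After rpl-3 and rpl-35 the strongest was rpl-41.2 (83.8 at 267 bp), and the median signal was 48.1. Of the 13, 1 held any of the 3 words, at rps-11, beside 23.02% of all upstream summits. Translation factors had 3 of 40, led by eef-1A.2 (68.6 at 312 bp), eif-3.C (62.5) and eif-3.G (31.2), and mitochondrial ribosomal proteins had 1 of 66, mrpl-15 (32.3).

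Among transcription factor families, basic leucine zipper genes had the highest share, 8 of 28 (28.6%), and the share with a core summit was the same, 8 of 28. The upstream summits were led by atf-2, the infection response factor zip-2 (83.3 at 275 bp) and cebp-1, a C/EBP relative (78.0 at 763 bp). Of these 8 summits 7 were supported in both replicates, beside 59.8% of all upstream summits. At least 1 of the 3 words was at 5 of the 8, beside 23.02% of all upstream summits. Nuclear hormone receptors had 18 of 274 (6.57%), led by nhr-85, nhr-105 (88.0 at 382 bp) and nhr-34 (75.9 at 714 bp), and both nhr-105 and nhr-34 held the PRDM1 core. Basic helix-loop-helix genes had 3 of 40, namely the Mad relative mdl-1 (112 at 638 bp), the TFEB relative hlh-30 (77.4 at 984 bp) and hlh-11 (45.4). Forkhead genes had 2 of 15, fkh-9 (114) and fkh-7 (35.3), the homeobox list, which does not hold dve-1, 1 of 93, ceh-20 (54.5), and GATA factors 1 of 12, egl-27 (31.4).

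**Figure D5:**
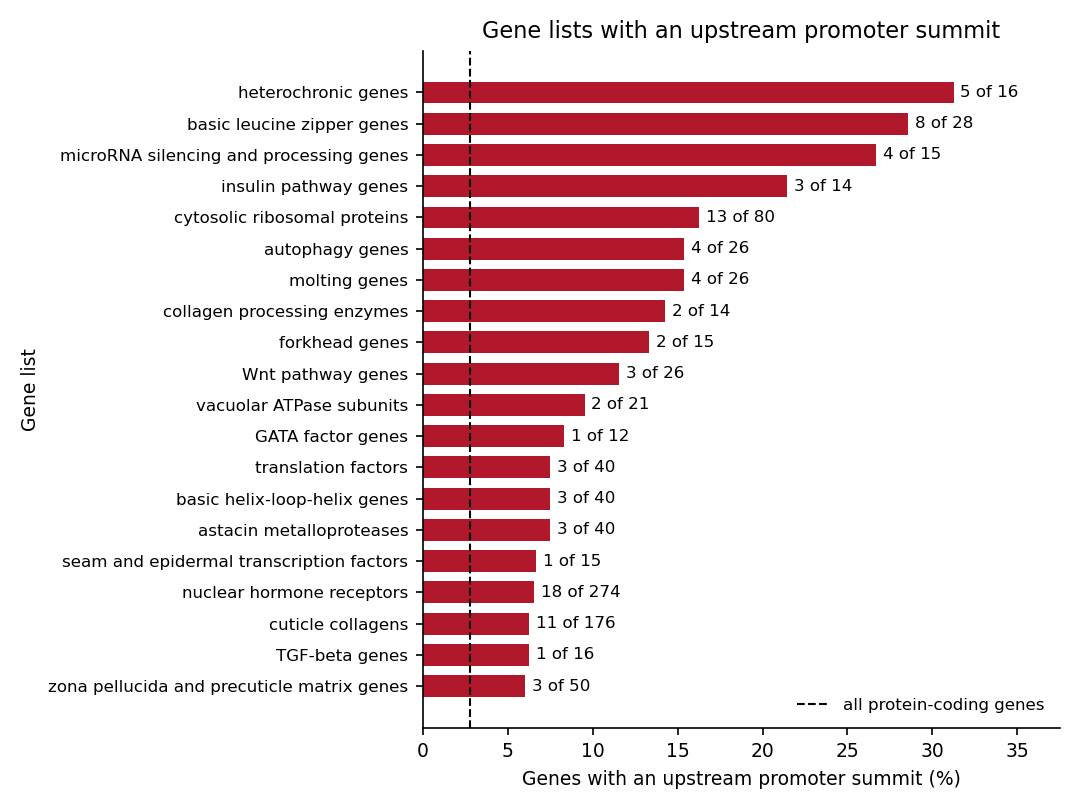
Share of genes with an upstream promoter summit (horizontal axis, %) in the 20 lists of at least 12 genes with the highest shares, with counts beside the bars and the share of all protein-coding genes, 2.78%, as a dashed line. Heterochronic genes lead at 31.25%, ahead of basic leucine zipper genes at 28.6%, and several bars rest on 1 to 3 genes.

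Signalling and housekeeping lists were mixed. Of 26 autophagy genes 6 had a core summit (23.1%) and 4 an upstream summit (15.4%), the latter led by the Atg8 relative lgg-1 (105 at 869 bp), atg-2 (79.8) and epg-9 (50.7, with the PRDM1 core). Insulin pathway genes had 3 of 14: hlh-30, skn-1 (45.8) and akt-2 (40.4). Wnt pathway genes had 3 of 26, wrm-1 (34.3), lit-1 (32.1) and sys-1 (28.4). None of their summits was in the stronger 1515 or supported in both replicates, beside 51.7% and 59.8% of all upstream summits. Vacuolar ATPase subunits had 2 of 21, vha-12 (48.2) and vha-13 (46.9), chaperones 2 of 59, hsp-1 (79.3) and dnj-20 (30.1), and hedgehog-related and patched-related genes 3 of 87, led by hog-1 (54.5). Lists with 1 gene were TGF-beta (sma-9, 31.3), insulin-like peptides (ins-39, 65.0), proteasome subunits (pas-5, 29.3), innexins (inx-13), glutathione S-transferases (gst-27, 28.7) and UDP-glucuronosyltransferases (ugt-64, 60.8).

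Other lists had few or no upstream summits. Counts of 0 were found for 23 EGF, Ras and Notch genes, 102 neuropeptide genes, 72 histone genes, 75 cytochrome P450 genes and 240 C-type lectin genes. Chemoreceptor genes had 4 of 1301 (0.307%), led by srh-17 with a signal of 121. Of the cell type markers an upstream summit was found at 1 of 9 intestinal genes (asp-1, 30.8), 1 of 8 neuronal genes (snb-1, 92.8), 1 of 7 epidermal genes (nhr-23, 33.2), and 0 of 7 body wall muscle and 0 of 6 germline genes. The list of seam and epidermal transcription factors had 1 of 15, nhr-23. The 342 summits that lay in the windows of several genes count for no list here.

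Few genes had more than 1 upstream summit. Of the 555 genes 530 had 1, 24 had 2, and din-1 had 4, with signals of 223, 82.7, 42.8 and 41.0 upstream of different starts of the gene. Of these, the summit with 42.8 held GAGAGAGA and that with 223 the PRDM1 core. Another nuclear summit lay within 500 bp of 15 of the 582 upstream summits (2.58%), a share that was not computed for other summits.

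In 41 genes an upstream summit stood together with a core summit, and neither kind was regularly the stronger. The strongest upstream summit of these genes had a median signal of 45.6, and the strongest core summit 53.1. The core summit was the stronger in 19 of the 41 genes (46.3%, exact binomial test, two-sided, p = 0.755). Upstream led at kin-20 (232 upstream, 124 core), din-1 (223 upstream, 99.99 core) and gldi-8 (140 upstream, 49.6 core). Core led at the autophagy gene lgg-2 (45.6 upstream, 279 core), smk-1 (32.4 upstream, 214 core) and scpl-3 (39.9 upstream, 192 core). These examples were chosen after their values were seen.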

How the data were processed

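Peak lists of BLMP-1 chromatin immunoprecipitation were taken for biological replicates 2 and 3, as the labels number them. Per the deposited file descriptions, the authors called relaxed lists of peaks and background per replicate and derived a thresholded list from them. The sources used here do not name the aligner, caller, versions or threshold. Each deposited signal comes from the authors' caller on an unstated scale and was used within a list or by rank. Read counts are not listed, so depth is unknown.

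A summit was the peak's start plus its deposited offset, capped at the last base. The 3060 thresholded peaks on ce11 included 29 mitochondrial ones, which were left out of classes but not of the strongest 3060 peaks taken per replicate. Genes came from Ensembl release 115 and sequence from RefSeq WBcel235; some windows among the strongest are not reported here. Summits were placed in the classes defined in the report with windows of 1000 bp upstream and 200 bp downstream, inclusive at both ends. Classes were compared by two-sided Fisher's exact tests (Benjamini-Hochberg over 10 tests), words against flanks with the exact McNemar test adjusted over 3 words, and all 8-letter words with the same test adjusted over 27458 words. A threshold of 0.05 was used, and summits of 1 list are not replicates, so p-values describe these libraries. Steps were tested on simulated data first. Python 3.11.15, NumPy 2.4.6, pandas 2.3.3, SciPy 1.17.1 and matplotlib 3.10.9 were used.

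The rule for named genes took the 20 strongest upstream summits, every heterochronic gene, the 3 strongest genes of each of 40 lists and the 3 summits nearest each limit. The regions, words, lists and alternatives were chosen with earlier results of these data known, so no count of a list is independent support, and the chemoreceptor list was narrowed to named receptor families after it had taken in other genes. Other limits, windows, flanks and word lengths and each replicate alone were tried as alternatives.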

Additional observations from a re-analysis of the deposited data

How the results depend on the processing

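Of the recomputed values, 95 kept their direction and side of the threshold or stayed within 1.5 times the reported count, 12 changed direction, 11 counts moved further and 1 result newly passed the threshold. The excess of all 3 words at upstream summits over their flanks kept its direction and stayed past the threshold in each alternative. The upstream summits numbered 364 with a 400 bp limit, 314 with a window of 500 bp, 927 with a window of 2000 bp and 301 in the stronger 1515 summits, and their genes 350, 310 and 294 with the first, second and last of these. Odds ratios against core summits changed side of 1 for strength (0.978 without replicate 2, 1.37 without replicate 3), for replicate support (1.00 with a 150 bp limit, 1.07 with 400 bp, 1.03 outside genes, 1.04 within 200 bp), for GAGAGAGA (0.854 with 150 bp) and for AGACGCAG (0.885 with 150 bp, 0.870 within 25 bp). Against near intergenic summits they did so for GAGAGAGA (1.17 with 400 bp) and AGACGCAG (1.12 outside genes, 0.816 to 1.39 leaving out a replicate, 1.09 within 25 bp). None of these passed the threshold in either direction; GAGAGAGA against core summits passed it with a 400 bp limit (Fisher's exact test, 2.25, adjusted p = 0.00210). Words past the threshold in the scan numbered 121 with a 150 bp limit, 11 with 400 bp, 10 outside genes and 412 for 6-letter words, against 58 reported; fewer summits enter 2 of these, and the cause was otherwise not tested. No paired analysis was possible because there is only 1 group. Replicate support cannot be recomputed from 1 replicate. With unknown depth, sites missing from a list may be bound below its reach.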
